A study of Mus musculus with 12 samples.

Results

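The Yippee-like genes Ypel1, Ypel2, Ypel3, Ypel4 and Ypel5 were examined in the kidneys of mice treated with cannabidiol (CBD), and the question was whether the lower level of Ypel2 in treated mice was shared by the rest of the family. The members were chosen by gene symbol, and the family itself was chosen by the difference of Ypel2 between treated and control mice in these same libraries. The 5 genes were taken from 57180 genes counted. All 5 were among the 17163 genes that had enough counts for testing. Because Ypel2 led to the choice, its values against the control group are given as a description, and where it is counted among called genes the call is no evidence.

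Directional libraries were sequenced from poly(A) RNA, with 1 library from the kidney of each of 12 male C57BL/6J mice, 60 days old at the start. All mice received 1 injection a day into the peritoneum for 28 days, each of 200 µL saline with 2% Tween 80. The Control group (n = 4) received this vehicle alone, the 10CBD group (n = 4) received 10 mg CBD/kg b.w. in it and the 20CBD group (n = 4) 20 mg CBD/kg b.w. Libraries of the Control group held 17946614 to 23532088 counts on genes, those of the 10CBD group 15417867 to 21977253 and those of the 20CBD group 16306563 to 18219064. In 4 libraries under 10% of the counts lay on mitochondrial genes (Control 2, 10CBD 1, 10CBD 3 and 20CBD 3, from 3.53% to 5.77%), while the other 8 lay between 12.8% and 23.4%. Both comparisons with the Control group share the same 4 control mice.

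Yippee-like proteins are small zinc-binding proteins that are strongly conserved among eukaryotes and were named after the Drosophila protein Yippee. YPEL3 is known as a target of p53 that slows cell growth, YPEL5 as a binding partner of the CTLH ubiquitin ligase complex, and YPEL4 from red blood cells. Much less is known of YPEL1 and YPEL2, and for none of the family is a role in the kidney well established.

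The members lie on separate chromosomes of GRCm39, Ypel1 (ENSMUSG00000022773) at chr16:16887560-16904909, Ypel2 (ENSMUSG00000018427) at chr11:86827251-86884646, Ypel3 (ENSMUSG00000042675) at chr7:126376112-126379723, Ypel4 (ENSMUSG00000034059) at chr2:84564395-84568999 and Ypel5 (ENSMUSG00000039770) at chr17:73143448-73158412. Ypel2 is on the minus strand and the other 4 are on the plus strand. In the canonical transcripts of GENCODE vM39 the coding sequence is 357 bases long in Ypel2 and Ypel3, 354 in Ypel1, 381 in Ypel4 and 363 in Ypel5. It is spread over 4 coding exons in Ypel1 to Ypel4 and over 2 in Ypel5. The coding sequence of Ypel2 was identical to that of Ypel3 at 82.1% of aligned bases, to Ypel1 at 81.1%, to Ypel4 at 78.7% and to Ypel5 at 56.3%. Ypel1 to Ypel4 share a coding exon of 109 bases, the third in each, which is shown because its bases differ between these closely related members. The counts are per gene, so reads on this exon alone were not examined. Capitals mark bases that differ from Ypel2. The exon lies at chr16:16899932-16900040 in Ypel1, chr11:86835399-86835507 in Ypel2, chr7:126377478-126377586 in Ypel3 and chr2:84567764-84567872 in Ypel4.
Ypel2: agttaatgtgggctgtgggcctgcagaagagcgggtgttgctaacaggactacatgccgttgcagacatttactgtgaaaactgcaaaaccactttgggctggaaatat
Ypel3: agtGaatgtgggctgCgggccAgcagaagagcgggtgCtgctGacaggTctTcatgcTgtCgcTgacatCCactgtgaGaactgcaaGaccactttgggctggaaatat
Ypel1: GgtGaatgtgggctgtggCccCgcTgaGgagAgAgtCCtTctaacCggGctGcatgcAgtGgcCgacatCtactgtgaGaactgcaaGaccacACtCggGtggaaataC
Ypel4: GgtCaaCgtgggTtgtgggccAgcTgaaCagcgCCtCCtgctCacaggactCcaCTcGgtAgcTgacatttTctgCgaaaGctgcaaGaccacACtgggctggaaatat

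Within this exon 14 of 109 bases differed from Ypel2 in Ypel3, 24 in Ypel4 and 25 in Ypel1. Over the whole canonical transcripts, the longest run of bases shared with Ypel2 was 23 in Ypel1 and Ypel3, 19 in Ypel4 and 16 in Ypel5. The reads were 150 bases long, and no stretch of that length was common to annotated transcripts of any pair of members. No pair of these genes is thus a near-identical copy of the kind whose reads cannot be assigned.

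In the Control group the level per length, given as FPKM (TMM-normalized CPM divided by the kilobases of annotated exon), was highest for Ypel3 (28.5 ± 4.79, SD, n = 4). Ypel2 followed with 9.47 ± 2.24 FPKM and Ypel5 with 8.16 ± 0.905 FPKM. These neighbours in the order overlapped, with 7.36 to 12.6 FPKM over the control mice for Ypel2 and 7.45 to 9.40 for Ypel5. Ypel1 (0.402 ± 0.0676 FPKM) and Ypel4 (0.156 ± 0.0540 FPKM) were much lower and did not overlap with each other or with the other members. With the length of the longest annotated transcript in place of the union of exons, Ypel5 (10.8 FPKM) stood above Ypel2 (9.47 FPKM), so the order of these neighbours depended on the length used. Ypel4 rested on 5 to 21 counts per library and Ypel1 on 24 to 51. In the 10CBD group against Control their log2 fold changes had the largest standard errors of the family, 0.36 and 0.25 (edgeR). What size of change could be detected at this depth was not measured. Ypel2, Ypel3 and Ypel5 had at least 263 counts in every library.

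**Figure D1:**
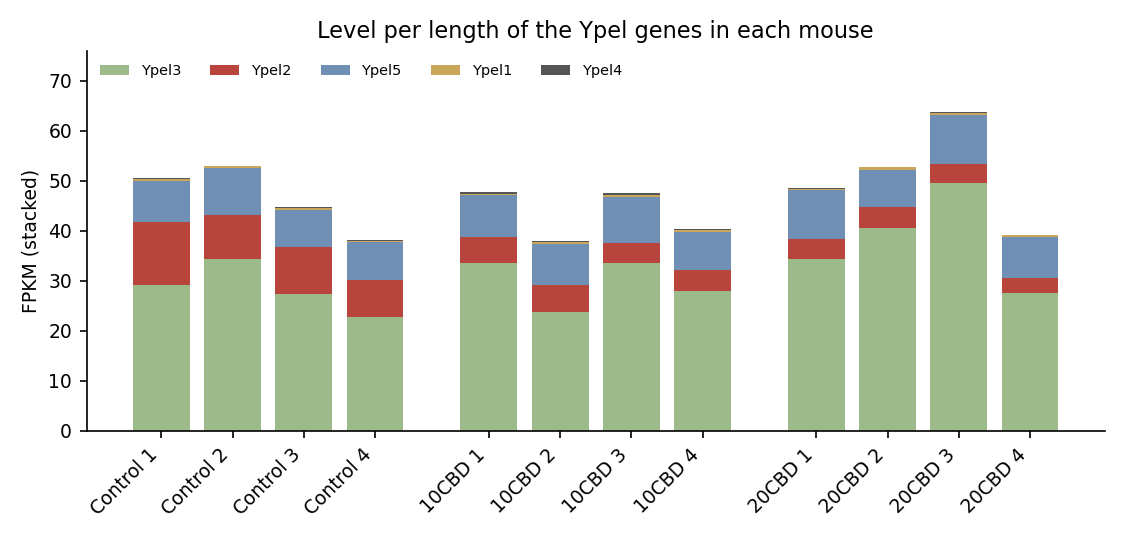
Level per length (FPKM) of the 5 Ypel genes, stacked in 1 bar per mouse, from Control on the left to 20CBD on the right. Ypel3 makes up most of each bar, and the share of Ypel2 is at least 16.4% in the Control group, 8.75% to 14.4% in the 10CBD group and 5.77% to 8.09% in the 20CBD group.

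Ypel2 was lower in treated than in control mice. In TMM-normalized CPM, which serve to compare mice for the same gene, Ypel2 had 62.5, 43.0, 45.8 and 36.5 in Control mice 1 to 4. It had 25.3, 27.2, 20.6 and 20.5 CPM in 10CBD mice 1 to 4 and 19.5, 21.2, 18.2 and 14.9 CPM in 20CBD mice 1 to 4. Every treated mouse thus lay below every control mouse, the widest spread was in the Control group, and the groups of both doses overlapped with each other. The mean was 47.0 ± 11.1 CPM (SD, n = 4) in the Control group, 23.4 ± 3.38 CPM in the 10CBD group and 18.4 ± 2.68 CPM in the 20CBD group. The log2 fold change fitted by edgeR was −1.01 ± 0.17 (SE) in the 10CBD group and −1.35 ± 0.17 in the 20CBD group, equal to 0.498 and 0.392 of the control level. Whether less RNA per cell or fewer cells that contain it underlie a difference in whole kidney cannot be told apart.

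**Figure D2:**
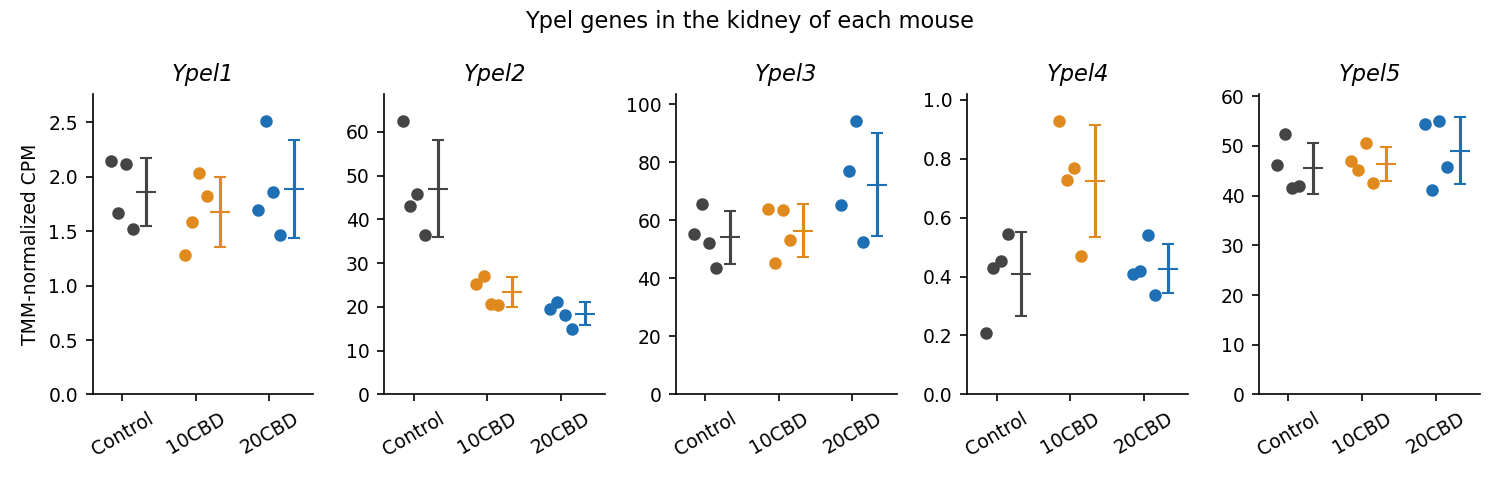
TMM-normalized CPM of each Ypel gene, with 1 point per mouse and the mean ± SD of each group (n = 4) at its right; each panel has its own scale from 0. In the Ypel2 panel the treated mice (14.9 to 27.2 CPM) all lie below the control mice (36.5 to 62.5 CPM), while in the other 4 panels treated and control mice overlap.

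The other members did not show this pattern. At an adjusted p under 0.1 (edgeR, Benjamini-Hochberg over 17163 genes), 1 of 5 members was called in the 10CBD group against Control, where 0.0291% of all genes were called, and 1 of 5 in the 20CBD group, where 0.303% were called. In both this was Ypel2, the gene that chose the family, so the count is no evidence. Groups did not overlap for 1 of 5 members in each comparison, again Ypel2, beside 3.19% of all genes in the 10CBD group and 5.30% in the 20CBD group. The direction of Ypel2 was the same under every alternative tried, which is likewise a description. The count at the lower dose became 0 without Control 1 (log2 fold change −0.83), Control 2 (−1.05), Control 3 (−1.02), 10CBD 1 (−1.05), 10CBD 3 (−0.95), 10CBD 4 (−0.95), 20CBD 1 (−1.01) or 20CBD 2 (−1.01).

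Ypel5, the partner of the CTLH complex, had the narrowest spread relative to its mean. Its SD was 11.1% of the mean in the Control group, 7.45% in the 10CBD group and 13.8% in the 20CBD group. It had 46.1, 52.4, 41.5 and 41.9 CPM in the Control mice, 47.0, 45.1, 50.7 and 42.5 CPM in the 10CBD mice and 54.4, 41.2, 55.0 and 45.7 CPM in the 20CBD mice. The groups overlapped. The 10CBD mice all lay within the control range, while 20CBD mice 1 and 3 lay above it and 20CBD mouse 2 just below it. Its log2 fold change against Control was 0.03 (95% confidence interval −0.24 to 0.29; edgeR adjusted p = 0.983) in the 10CBD group and 0.11 (−0.16 to 0.38; edgeR adjusted p = 0.875) in the 20CBD group. A fall of Ypel5 of the size described for Ypel2 lay outside both intervals.

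Ypel3, the p53 target, was at its highest in mice of the 20CBD group. It had 55.3, 65.5, 52.1 and 43.4 CPM in the Control mice, 63.9, 45.1, 63.7 and 53.1 CPM in the 10CBD mice and 65.4, 76.9, 94.2 and 52.4 CPM in the 20CBD mice. In the 20CBD group 2 of 4 mice exceeded every control mouse, and the other 2 lay within the control range. Its log2 fold change was 0.06 (95% confidence interval −0.32 to 0.44; edgeR adjusted p = 0.979) in the 10CBD group and 0.42 (0.03 to 0.80; edgeR adjusted p = 0.541) in the 20CBD group. Neither was called. With a covariate for the percentage of mitochondrial counts, the value in the 20CBD group was 0.51 with an edgeR adjusted p = 0.0604, past the threshold as were 1386 of 17163 genes in that fit, while over all 24 alternatives the adjusted p ranged from 0.0604 to 0.893 and the value from 0.26 to 0.54. In the 10CBD group the sign of Ypel3 turned with that covariate (−0.01).

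Ypel1 had between 1.52 and 2.14 CPM in the Control mice, between 1.28 and 2.03 CPM in the 10CBD mice and between 1.47 and 2.51 CPM in the 20CBD mice. Its log2 fold change was −0.15 (95% confidence interval −0.68 to 0.38; edgeR adjusted p = 0.949) in the 10CBD group and 0.01 (−0.52 to 0.54; edgeR adjusted p = 0.996) in the 20CBD group, where the sign turned under several alternatives. The groups overlapped.

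Ypel4, known from red blood cells, had 0.210, 0.429, 0.453 and 0.544 CPM in the Control mice, 0.928, 0.726, 0.768 and 0.470 CPM in the 10CBD mice and 0.410, 0.419, 0.540 and 0.339 CPM in the 20CBD mice. In the 10CBD group 3 of 4 mice lay above every control mouse and above every 20CBD mouse. Its log2 fold change was 0.84 (95% confidence interval 0.07 to 1.62; edgeR adjusted p = 0.830) in the 10CBD group and 0.08 (−0.75 to 0.91; edgeR adjusted p = 0.982) in the 20CBD group. The interval in the 10CBD group reached above 0 only before adjustment over all genes, at which Ypel4 was not called. The markers of erythroid cells had a sum of 691, 1354, 1506 and 988.8 CPM in the Control mice, 1202, 995.9, 674 and 689.7 CPM in the 10CBD mice and 852, 1330, 1729 and 749.7 CPM in the 20CBD mice. None of the 6 tested of these 9 markers was called against Control by edgeR, DESeq2 or limma-voom, and 0 had an unadjusted p under 0.05. The most abundant was Hba-a1. The sums of the 3 groups overlapped, and the part of these cells in the level of Ypel4 was not tested.

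**Figure D3:**
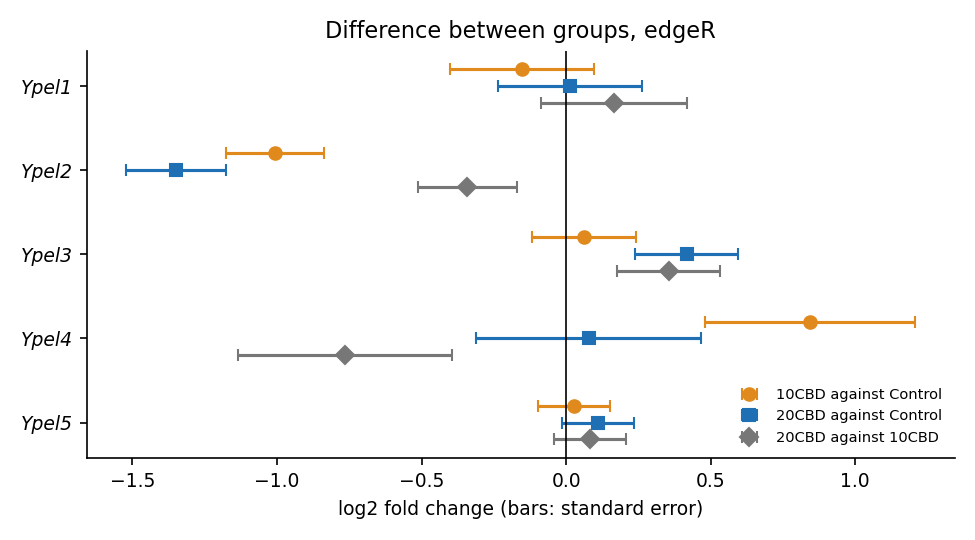
Log2 fold change of each Ypel gene in the 3 comparisons between groups of 4 mice, fitted by edgeR, with bars of 1 standard error. Ypel2 lies at −1.01 and −1.35 against Control, and the other 4 genes lie between −0.15 and 0.84 against Control; between the doses Ypel4 lies lowest, at −0.77.

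Exact two-sided permutation tests of mean log2 CPM used the mice of the groups compared alone, with 70 arrangements of 4 against 4 and a smallest possible p of 0.0286. They were computed for the 4 other members in each of the 3 comparisons and for Ypel2 between the doses, 13 tests in all. The smallest were those of Ypel4 in the 10CBD group against Control and between the doses (exact p = 0.0571 in each). For Ypel3 in the 20CBD group against Control the exact p was 0.143. After Benjamini-Hochberg adjustment over the 13 tests, the smallest exact p was 0.371. Had 1 member alone reached the smallest possible p, its adjusted p would also have been 0.371. These adjusted values could therefore hardly pass, and they do not show that the groups did not differ.

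Between the doses, 0 of 5 members were called (edgeR), where 0% of all genes were called; 1083 of 17163 genes had an unadjusted p under 0.05, and DESeq2 called 12 genes and limma-voom 0. None of the 5 members had groups that did not overlap, which 3.10% of all genes had. Ypel2 was lower at the higher dose by a log2 difference of −0.34 (95% confidence interval −0.71 to 0.02; edgeR adjusted p = 0.799), with 20CBD mouse 2 above 10CBD mice 3 and 4, and by the exact permutation test p was 0.0857. Ypel4 had a log2 difference of −0.77 (−1.56 to 0.02; edgeR adjusted p = 0.789) and Ypel3 of 0.35 (−0.03 to 0.74; edgeR adjusted p = 0.799). Ypel1 and Ypel5 stood at 0.17 and 0.08. A further fall of Ypel2 from 10 to 20 mg was therefore not told apart from the spread between mice.

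Set against each other within the same mouse, Ypel2 and its relatives moved apart. The mean of log2 CPM of Ypel2 minus that of Ypel5 was 0.02 in the Control group, −0.99 in the 10CBD group and −1.41 in the 20CBD group. This is a difference from Control of −1.02 ± 0.21 (SE) and −1.43 ± 0.23. Against Ypel3 the difference from Control was −1.05 ± 0.25 in the 10CBD group and −1.73 ± 0.21 in the 20CBD group. Against Ypel1 it was −0.84 ± 0.24 and −1.33 ± 0.13, and against Ypel4, at its low counts, −1.69 ± 0.41 and −1.41 ± 0.40. For each of the 4 relatives, every treated mouse of both dose groups had a lower log2 ratio than every control mouse. These values are a description, since Ypel2 was chosen by the same contrast.

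In FPKM, the sum of the family was 46.6 ± 6.58 (SD, n = 4) in the Control group, 43.4 ± 5.03 in the 10CBD group and 51.1 ± 10.2 in the 20CBD group. Without Ypel2 the sum was 37.2 ± 5.61, 38.7 ± 5.26 and 47.4 ± 9.90 FPKM. The groups overlapped in both sums. The share of Ypel2 in the family was 20.3 ± 3.59% in the Control group, 11.04 ± 2.39% in the 10CBD group and 7.40 ± 1.11% in the 20CBD group, and that of Ypel3 60.9 ± 3.08%, 68.2 ± 3.80% and 73.9 ± 3.88%.

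The 4 libraries with a mitochondrial share under 10% were compared with the other 8, over all 3 groups. Ypel5 was higher in them by a log2 difference of 0.20 (exact permutation p = 0.0263, adjusted over the 5 genes 0.106) and Ypel3 by 0.37 (exact permutation p = 0.0424, adjusted 0.106), with 495 arrangements. Neither passed after adjustment. The low-share libraries were only 1 in Control, 2 in 10CBD and 1 in 20CBD. Within the groups, they were higher in Ypel3 by 0.39 in Control, 0.38 in 10CBD and 0.56 in 20CBD. In Ypel5 they were higher by 0.28, 0.16 and 0.24. Ypel2 differed little within groups, by −0.13, −0.05 and −0.01 on the log2 scale (all libraries, exact permutation p = 0.743). The arrangements exchanged libraries across the groups. For Ypel2 this p therefore takes in the difference between treated and control mice and does not test the values within groups. Over all libraries Ypel4 had the largest difference, 0.49 (exact permutation p = 0.0889, adjusted 0.148), with 0.14, 0.46 and 0.39 within the groups. Within Control and within 20CBD the difference of Ypel3 was larger. The 2 highest 10CBD values of Ypel4 were those of the low-share libraries. For Ypel1 the exact permutation p was 0.505.

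**Figure D4:**
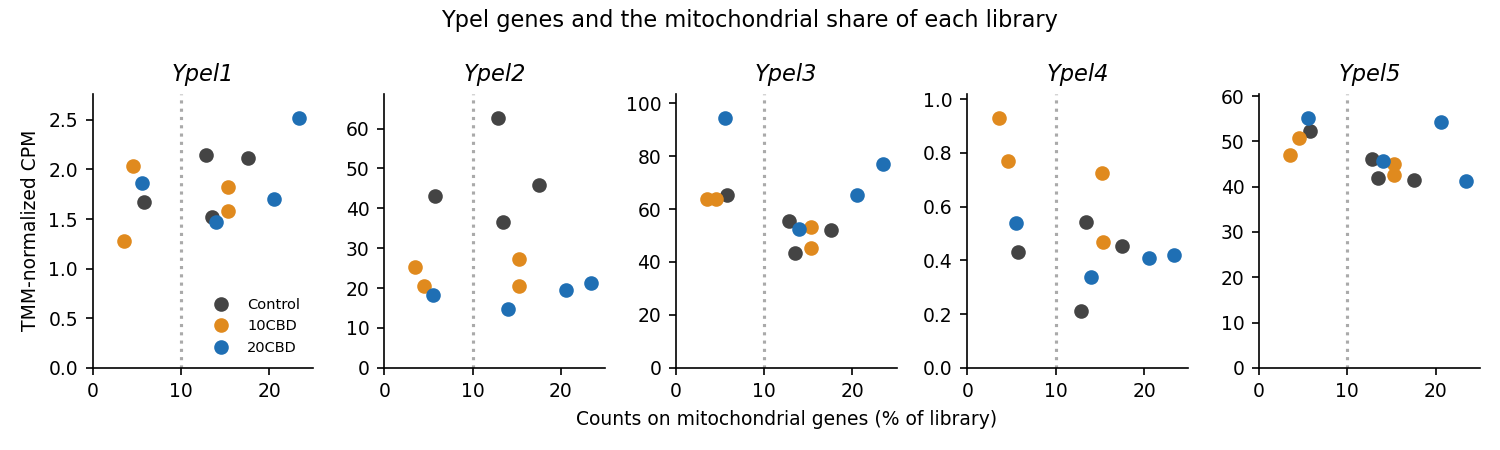
TMM-normalized CPM of each Ypel gene against the share of counts on mitochondrial genes, 1 point per library, with a dotted line at 10%. The 4 libraries left of the line have 63.7 to 94.2 CPM of Ypel3 and 47.0 to 55.0 CPM of Ypel5, and Ypel2 separates control from treated mice on both sides of the line.

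The members were also compared with each other. Of 10 pairs, those without Ypel2 were taken over all 12 mice and those with Ypel2 over the 8 treated mice, since that gene split the control mice from the treated ones. The highest were Ypel2 with Ypel4 (8 treated mice, Pearson r = 0.759, exact permutation p = 0.0256, Spearman rho = 0.667, exact permutation p = 0.0831) and Ypel3 with Ypel5 (12 mice, r = 0.583, permutation p = 0.0463, rho = 0.552, permutation p = 0.0664). After adjustment over the 10 pairs, p was 0.232 for both by Pearson and 0.415 for both by Spearman, so neither passed, which with 8 to 12 mice does not show that the genes were unrelated. Without the 2 mice farthest from the median of the first gene, r was 0.646 and 0.284, so that of Ypel3 with Ypel5 rested on those mice. The r of Ypel2 with Ypel4 pools both doses, and both genes were lower at the higher dose (log2 difference −0.34 and −0.77). It therefore takes in that difference between the doses. Within the treated mice, Ypel2 had r = −0.110 with Ypel1 (exact permutation p = 0.809), r = −0.243 with Ypel3 (exact permutation p = 0.565) and r = −0.232 with Ypel5 (exact permutation p = 0.581).

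Genes whose pattern over the 12 libraries was most like that of Ypel2, by Pearson's r of log2 CPM, were Bmal1 (r = 0.947), the long non-coding RNA gene Gm12121 (0.932), Ppard (0.919), Gm48878 (0.911) and Lrig2 (0.900). Bmal1 encodes a core activator of the circadian clock, Ppard a nuclear receptor for fatty acids and Lrig2 a membrane protein. The most opposite patterns were those of Dbp (−0.968), Per3 (−0.956) and Tef (−0.931), a clock-driven transcription factor, a period protein and a factor related to Dbp. As r here takes in the difference between treated and control mice that chose Ypel2, it is a measure of likeness only. Dbp had 2.36 ± 0.703 CPM in the Control group, 15.7 ± 2.81 CPM in the 10CBD group and 24.0 ± 2.22 CPM in the 20CBD group, and Bmal1 22.0 ± 4.03, 10.8 ± 1.18 and 9.53 ± 2.87 CPM.

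With the mean of each group taken out, other genes came first for Ypel2, namely 4921536K21Rik (r = 0.951), Gm64465 (0.900), Nfkbiz (0.890), Bmyc (0.880) and Ttc39a (0.864), of which only Nfkbiz exceeded 2 CPM in the group means. None of the 5 genes most like Ypel2 over all libraries was among them. Over 12 libraries, Ypel3 was close to Nr2f1 (r = 0.938) and Emc6 (0.930), Ypel5 most like Kcmf1 (0.888), Kctd6 (0.872) and Gm20604 (0.870), Ypel1 most like Cacna1a (0.918), Rab37 (0.859) and Tnfrsf12a (0.854), and Ypel4 most like Gm18649 (0.871), Nscme3l (0.840) and Gm59143 (0.826). None of these 11 genes was called against Control at either dose by edgeR.

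**Figure D5:**
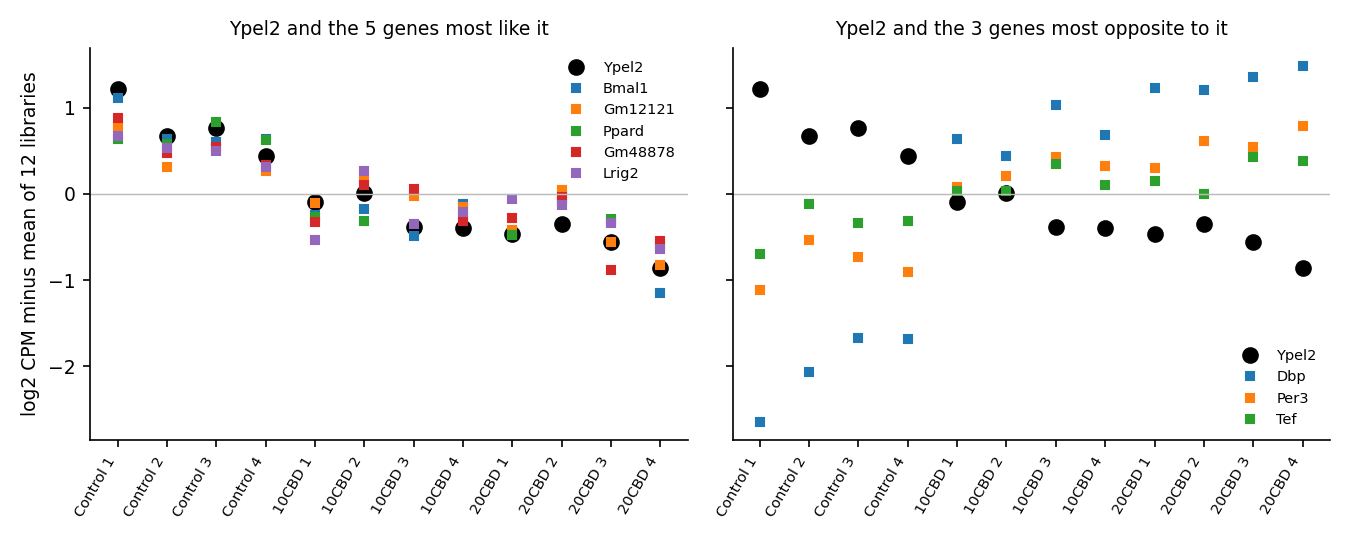
Log2 CPM of Ypel2 in each mouse, minus its mean over 12 libraries, beside the 5 genes most like it (left) and the 3 most opposite to it (right). The points of Ypel2, Bmal1 and Ppard lie highest in the 4 control mice, where those of Dbp and Per3 lie lowest.

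Of 6 clock genes whose RNA peaks with that of Bmal1, 0 had a log2 fold change above 0 at either dose, the direction of Ypel2, though most were not called in the 10CBD group. By edgeR, 0 were called higher and 1 lower in the 10CBD group, Npas2 (log2 fold change −1.43, SE 0.23, edgeR adjusted p = 0.0792). In the 20CBD group 4 were called lower, Npas2 (−1.45, edgeR adjusted p = 0.0259), Bmal1 (−1.21, adjusted p = 0.0340), Nfil3 (−1.30, adjusted p = 0.0144) and Cry1 (−1.32, adjusted p = 0.0898). Clock itself, the most abundant of the list, stood at −0.27 and −0.09, not called. The median log2 fold change of the list was −1.0 in the 10CBD group and −1.25 in the 20CBD group, beside 0.01 for all genes tested in each. Of all genes, edgeR called 0.0291% and 0.303%. DESeq2 called 5 of the 6 at each dose, beside 40 and 182 of all genes, and limma-voom 1 and 3, beside 5 and 48.

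Of 11 clock genes of the opposite phase, 2 were called higher in the 10CBD group, Dbp (log2 fold change 2.75, edgeR adjusted p = 1.88e-05) and Per3 (1.08, edgeR adjusted p = 0.0184). In the 20CBD group 6 were called higher, Dbp (3.36), Per3 (1.39), Bhlhe41 (1.46), Ciart (1.40), Nr1d1 (1.33) and Nr1d2 (0.80). None was called lower. The shares of all genes called by edgeR were 0.0291% and 0.303%. DESeq2 called 3 and 8 of the 11, beside 40 and 182 of all genes, and limma-voom 2 and 6, beside 5 and 48. The most abundant were Tef (0.49 and 0.60), Hlf (−0.02 and 0.12) and Nr1d2, and the median was 0.56 and 0.80. These lists were set up with earlier results of these data known and the time of day of tissue collection is not given in the sources used here, so its part in the values of Ypel2 and of the clock genes was not tested.

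Lists of genes tied to the relatives of Ypel2 were examined as well. Of the 10 CTLH subunits, partners of YPEL5, 0 were called in either dose group by edgeR, DESeq2 or limma-voom, and 0 had an unadjusted p under 0.05. Of all genes, edgeR called 0.0291% and 0.303%, DESeq2 40 and 182, and limma-voom 5 and 48. At these shares 0 calls in a short list are no result about its members. Their median log2 fold change was −0.03 and −0.04, with Wdr26 (137.6 ± 5.89 CPM in Control; −0.05 and 0.09), Mkln1 (104 ± 9.61 CPM; −0.01 and 0.00) and Rmnd5a (96.7 ± 9.14 CPM; −0.06 and −0.04) the most abundant. Of 19 tested p53 targets out of 20, 0 were called at either dose by edgeR, DESeq2 or limma-voom. An unadjusted p under 0.05 was found for 5 and 3 of them, a larger share at each dose than the 973 and 1450 of all 17163 genes. These targets went both ways at each dose, none was among them at both doses, and the difference in share was not tested. The medians were −0.04 and 0.00, and the most abundant were Ccng1 (−0.27 at both doses), Perp (−0.04 and −0.01) and Sesn2 (−0.29 and −0.18). Of 9 tested genes out of 10 that encode proteins with a zinc-binding fold related to that of the Ypel family, 0 were called by any of these tools. This stands beside the same shares of all genes and is likewise no result about the list. None had an unadjusted p under 0.05. The most abundant were Msrb1 (−0.01 and 0.29), Crbn (0.05 and 0.03) and Msrb2 (0.34 and 0.03), and the medians were −0.12 and 0.03.

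The genes beside the members on the chromosome were not called at either dose by edgeR, which called only 0.0291% and 0.303% of all genes. For Ypel2 the nearest tested genes were Dhx40, 128679 bp away, with log2 fold changes of 0.10 and 0.10, and Gdpd1, 39716 bp away, with −0.03 and −0.10. Neither fell with Ypel2. For Ypel3 they were Gdpd3 (−0.14 and −0.04) and Tbx6 (−0.36 and −0.58), for Ypel5 Alk (0.20 and 0.53) and Lbh (0.02 and 0.21), for Ypel1 1700056N10Rik (0.04 and −0.39) and Sdf2l1 (−0.62 and −0.39), and for Ypel4 Zdhhc5 (−0.15 and −0.08) and Gm19426 (0.39 and 0.13).

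Genes on the opposite strand overlapped 4 of the members, and the strand setting of the counting is not given in the sources used here, so their reads and those of the members cannot be told apart with certainty. Ypel1 overlaps Ppil2, a tested gene at 45.3 CPM, and Ypel4 overlaps Clp1 at 10.5 CPM, each far above the member it overlaps. Neither Ppil2 (0.12 and −0.01) nor Clp1 (0.17 and −0.11) was called. Ypel1 also overlaps the pseudogene Gm9974, which covers its coding exon shown above and had at most 4 counts in a library. Ypel3 overlaps Gm9967, which had at most 14 counts in a library. Of the long non-coding RNA genes that overlap Ypel2, Gm74003 and Gm74007, neither was among the genes counted. The same held for Gm59807, which overlaps Ypel1, and Gm75059, which overlaps Ypel4.

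In RefSeq promoters of GRCm38.p6 (32851 in all, 1 each for Ypel1 to Ypel4 and 2 for Ypel5), the 250 bases before the start were searched on both strands for the E-box CACGTG, the D-box sequences TTATGTAA and TTACGTAA, and AGGTCA. None of the windows of the 5 members held any of them. Of all windows, 6.02% held CACGTG, 0.819% TTATGTAA, 0.113% TTACGTAA and 14.0% AGGTCA, so that most promoters lack each, and nothing about a factor follows. The window of Ypel2 had 72.0% G and C with 21 CG pairs, and that of Ypel4 62.0% with 3.

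The libraries had the markers of kidney tissue. The 6 proximal tubule markers summed to 6614, 6655, 7109 and 8408 CPM in the Control mice, 5402, 6591, 6368 and 5758 CPM in the 10CBD mice and 5584, 5393, 5297 and 5799 CPM in the 20CBD mice. The treated mice thus lay below all control mice in this sum, as they did in Ypel2. The margin was narrow, with 6591 CPM in 10CBD 2 and 6614 CPM in Control 1. The part of this sum in the level of Ypel2 was not tested. The markers were not alike, with log2 fold changes in 10CBD and 20CBD of −0.26 and −0.76 for Lrp2 and 0.04 and −0.03 for Slc22a6. The median of the 6 was −0.22 and −0.43, and 1 was above 0 in the 10CBD group and 0 in the 20CBD group. The most abundant was Slc34a1 (log2 fold change −0.30 and −0.23), and of the 6 only Slc5a2 was called, in the 20CBD group (−0.61, edgeR adjusted p = 0.0820), where DESeq2 called 2 (182 of all 17163 genes) and limma-voom 1 (48 of all genes). None of the 6 was at 0.

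The sums of the other cell types overlapped between control and treated mice. In CPM the group means in Control, 10CBD and 20CBD were 1395, 1776 and 1407 for the thick ascending limb (most abundant Slc12a1), 725, 628 and 522 for the distal convoluted tubule (Slc12a3), 191, 219 and 212 for principal cells (Aqp3) and 306, 266 and 264 for intercalated cells (Atp6v1g3). They were 384, 351 and 407 for podocytes (Podxl), 253, 232 and 248.7 for endothelium (Pecam1), 129, 126 and 141 for fibroblasts (Pdgfra) and 46.6, 45.6 and 47.6 for immune cells (C1qa). Adipocyte markers had 210, 108 and 96.0 CPM (Fabp4), with 97.6 CPM in Control 3, within the treated range. The sum was carried by Fabp4 (log2 fold change −0.75 and −0.74), while the median of the tested markers was −1.63 and −3.02. Of the 5 adipocyte markers tested, edgeR and limma-voom called 0 at either dose, DESeq2 called 0 at the lower and 2 at the higher dose (40 and 182 of all genes), and 3 and 5 had an unadjusted p under 0.05 (973 and 1450 of all 17163 genes). Markers of the adrenal cortex (5.34, 4.47 and 4.66 CPM) and skeletal muscle (1.07, 1.24 and 1.25 CPM) were near 0. None of the markers in this paragraph was called against Control by edgeR, and those other than of adipocytes by neither DESeq2 nor limma-voom.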

How the data were processed

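Whole counts per Ensembl gene, without normalization, were deposited by the authors, 1 file per library. Per the labels and the study's methods, reads were trimmed with Flexbar, mapped to GRCm39 with STAR 2.7.5c and counted with HTSeq 1.99.2. The annotation release, the strand setting and the handling of molecular identifiers are not given in the sources used here, so repeated reads of 1 molecule could not be removed. Symbols came from GENCODE vM39, which held 99.02% of 57180 identifiers and 99.952% of the counts. Entries that name no gene stayed out of all totals. Of the reads mapped to a single place, 12.1% to 19.9% fell outside genes and 4.72% to 5.29% were ambiguous. No 2 libraries were identical.

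Genes were kept with filterByExpr and tested with edgeR 4.0.16 (R 4.3.3) by its quasi-likelihood test, TMM normalization and 1 mean per group over all 12 libraries, after a test on simulated data. Log2 CPM used a prior count of 2. Exact and permutation tests, correlations and sequence comparisons used Python 3.11.15, scipy 1.17.1 and Biopython 1.88. DESeq2 1.42.0 and limma-voom (limma 3.58.1), other normalizations, filters and covariates, and leaving out each library were the alternatives.

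The genes named are the 5 members, the nearest tested gene on each side, the genes most like each member (for Ypel2, 5 highest and 3 lowest r, and 5 highest without group means; for the others, 3 highest), and of each list every called gene and the 3 of highest mean CPM. Of the genes this rule names, 2 are not reported here. The members and lists were chosen with earlier results of these data known. Of the cell type lists, sums and the most abundant gene are given, with further genes for the proximal tubule. Columns of the authors' own comparisons and the PCR measurements were not used here.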

Additional observations from a re-analysis of the deposited data

Results flagged for a closer look

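Of 78 groups of 4 values examined, which covered each Ypel gene, the FPKM sum of the family, each list and the library totals, 4 held a mouse far from the other 3 of its group, where chance gives about 1 group in 20. None of the 4 was a Ypel gene or the family sum. The clock genes of the opposite phase summed to 430.5 CPM in 10CBD 1, against 516 to 531 CPM in the other 10CBD mice. Markers of collecting duct principal cells summed to 281.7 CPM in Control 2, against 147 to 170.1 CPM in the other control mice. Podocyte markers summed to 479.9 CPM in 20CBD 2, while the other 20CBD mice had 377 to 389.9 CPM. Counts on genes came to 16306563 in 20CBD 3, and to 18045399, 18168511 and 18219064 in the other 20CBD libraries.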

How the results depend on the processing

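The direction of Ypel2 against Control was kept under all 12 alternatives and on leaving out each library. Under the alternatives it ranged from −1.39 to −1.33 in the 20CBD group and from −1.04 to −0.98 in the 10CBD group, and on leaving out 1 library from −1.45 to −1.18 in the 20CBD group. As Ypel2 was chosen by this contrast, neither its direction nor its calls are evidence. The alternative with an adjusted p under 0.05 used the main fit, so it could not change these values. The call at the lower dose ended at an adjusted p under 0.05 (−1.01) and with upper-quartile normalization (−1.01). It also ended with at least 10 counts in every library (−0.998) and with only the groups compared (−1.002). On leaving out libraries the value at the lower dose ranged from −1.11 to −0.83.

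The number of called genes was 3 and 23 (10CBD and 20CBD against Control) at an adjusted p under 0.05. It was 331, 416 and, between the doses, 256 with no filter on low counts, 40, 182 and 12 with DESeq2, 15, 1386 and 62 with the mitochondrial share as a covariate, and 26 and 107 without the 4 libraries of low mitochondrial share. Leaving out 1 library gave 2 to 8 calls at the lower dose and 14 to 54 at the higher, the fewest at the higher dose without Control 1, 2 or 4 (14 each), 20CBD 2 (19), 20CBD 4 (25), 20CBD 3 (29) and Control 3 (32). The cause was not tested.

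Small values of the other members changed sign. With no filter, Ypel5 in the 10CBD group was −0.000102 and Ypel1 in the 20CBD group −0.00263. The latter was −0.00516 with limma-voom, −0.0477 with the mitochondrial covariate and −0.0318 without the 4 libraries. With the covariate, Ypel3 (−0.0113) and Ypel5 (−0.0176) in the 10CBD group turned as well, and Ypel3 in the 20CBD group passed the threshold (0.51). Without the 4 libraries Ypel3 in the 10CBD group was −0.0380 and Ypel4 in the 20CBD group −0.0151. Leaving out 1 library gave −0.0320 to 0.17 for Ypel3 and −0.0205 to 0.10 for Ypel5 in the 10CBD group, −0.16 to 0.11 for Ypel1 and −0.15 to 0.24 for Ypel4 in the 20CBD group, and −0.00280 to 0.28 for Ypel1 between the doses. Ypel4 fell below the filter and had no value with at least 10 counts in every library, with mitochondrial and ribosomal RNA genes removed and, for the comparisons of the 20CBD group, with only the groups compared, and DESeq2 gave it no adjusted p. With the length of the longest transcript the control level was 0.561 FPKM for Ypel1, 0.226 for Ypel4 and 10.8 for Ypel5.

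With the replicate number as a factor (replicate block), 27 genes were called at the higher dose and 4 at the lower. The numbers did not pair the mice: 4 of 12 pairs with the same number had r over 0.1, with a median of 0.0321 against −0.0198 for other pairs, and 3 of 12 libraries correlated best with one of their own number.

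Depth limits Ypel1 and Ypel4 most, and with 4 mice a group small changes of any member cannot be seen.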
